A study of Mus with 30 samples.

Results

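The hearts of 5 mice given angiotensin II (Ang II) together with baicalin were compared with the hearts of 5 mice given Ang II alone. These 10 libraries were chosen by their group labels, AngII+BAI and AngII, out of 30 libraries in 6 groups of 5 mice. All mice were C57BL/6, an inbred laboratory strain, and all infusions lasted 28 days. The Ang II group received 500 ng/kg/min of Ang II, and the Ang II + baicalin group received the same infusion with baicalin at 5 mg/kg/day. The other groups used here were saline-infused Control mice and mice given the same Ang II infusion with a further compound. Gastrodin and ethoxysanguinarine were given at the dose of baicalin, and the daily dose of valsartan, a blocker of the Ang II receptor, was 10.4 mg/kg. The study's methods describe male mice, 8 weeks old when obtained, for the Control, Ang II and gastrodin groups. The sources used here do not give the sex and age of the baicalin mice or the route by which baicalin was given. The labels give each library a mouse number of its own, and no mice are paired across groups. The study's methods give 6 mice per group for sequencing, and the labels give 5.

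Ang II is the active hormone of the renin-angiotensin system. It narrows arteries, promotes salt retention and raises blood pressure, and its long infusion in mice is a common model of hypertension with thickening and scarring of the heart muscle. Baicalin is a flavone glucuronide, a plant compound from the root of Scutellaria baicalensis. The question was which transcripts of cardiac tissue differed when baicalin was added to the infusion. A gene can give several transcripts by different splicing or start sites, and these data hold 1 value per transcript, not per gene.

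The values were read as FPKM, which is scaled for transcript length and library size, so the number of reads behind each value is unknown. Each transcript carries an Ensembl identifier (ENSMUST) or the name of a merged model (MERGE) that was assembled from reads. The files do not pair these names with genes, and 0 of them matched the reference table of genes. Genes, pathways and the markers of heart cell types are therefore not described here, and the tissue label was not checked against its markers. Cardiac tissue holds many cell types, and in such bulk samples fewer cells of a type and less RNA per cell cannot be told apart. Summed values per mouse lay between 581222 and 653969 FPKM in the Ang II + baicalin group and between 619497 and 645192 FPKM in the Ang II group. Across the tested transcripts, log2 values correlated with a mean r of 0.811 among baicalin mice, 0.829 among Ang II mice and 0.816 across the groups. The profiles of the groups as a whole were thus about as alike between groups as within the baicalin group.

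Of the 31548 transcripts listed for the baicalin mice, 29488 were also listed for the Ang II mice. A further 2060 were listed for baicalin and not for Ang II, and 401 of these had a mean of at least 1 FPKM in the baicalin mice. None of the 2060 reached 1 FPKM in all 5 baicalin mice. In the other direction 2364 were listed for Ang II and not for baicalin, 0 of them with a mean of at least 1 FPKM. These transcripts could not be tested. Among transcripts listed for the Ang II mice, the higher of the Control and Ang II means was 0.5 FPKM or more. The lists had thus been filtered by level, and the 401 and the 0 cannot be read as a difference in expression. Of those listed in both, 18140 were at 1 FPKM or more in at least 5 of the 10 mice and were tested with limma on log2(FPKM + 1), a scale that understates the fold changes of low transcripts.

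After adjustment for the number of transcripts, 3 transcripts were higher with baicalin than with Ang II alone and 0 were lower (limma, Benjamini-Hochberg adjusted p under 0.05). These are 0.0165% and 0.0% of the transcripts tested. At an unadjusted p under 0.05, 548 were higher (3.02%) and 1221 were lower (6.73%). Over both directions together, this threshold calls about 1 in 20 transcripts when nothing differs. The study, which used the program DESeq, also asked for a fold change of at least 2. With this fold asked for as well, but taken on log2(FPKM + 1) from limma, 140 were higher (0.772%) and 180 lower (0.992%). In 165 transcripts (0.91%) every baicalin mouse was above every Ang II mouse, and in 353 (1.95%) every baicalin mouse was below every Ang II mouse. On log2(FPKM + 1) the differences were small for most transcripts. Those higher at an unadjusted p under 0.05 differed by a median of 1.56-fold in FPKM + 1, at a median level of 2.56 FPKM. Those lower differed by a median of 1.38-fold in FPKM + 1, at a higher median level of 7.15 FPKM. The added 1 understates the fold in FPKM, and more so at low levels, so these medians are not directly comparable.

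The excess of lower over higher transcripts depended on how the libraries were scaled. After quantile normalization, which gives every library the same distribution of values, 783 were higher (4.32%) and 813 lower (4.48%). That step takes away a shift shared by most transcripts, so it cannot show whether there was one. With the 75th percentile of each library set equal, 772 were higher and 985 lower. With the sums set equal after leaving out 20 transcripts that switched between very high and very low values, a scaling chosen after the data were seen, the split turned round, with 840 higher and 610 lower. The median log2 difference of all tested transcripts was -0.049 as deposited, -0.0013 after quantile normalization and 0.026 with this last scaling. Baicalin mouse 5154 had fewer transcripts at 1 FPKM or more (16808) than the other 4 (18495 to 18688), and baicalin mouse 5113 had the lowest mean correlation with its own group (0.798, over the 28298 transcripts listed for all 30 mice). Without both, 554 were higher and 733 lower, with 2 and 7 at an adjusted p under 0.05 from limma.

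The 3 transcripts that rose were merged models, and they are named because so few passed, which was after their values were seen. MERGE.10021.3 was at 40.1, 31.8, 45.4, 64.7 and 33.6 FPKM in the baicalin mice and at 4.03, 0, 2.55, 3.05 and 1.66 FPKM in the Ang II mice. The lowest baicalin mouse was far above the highest Ang II mouse. The means were 43.1 ± 13.2 and 2.26 ± 1.53 FPKM (SD, n = 5 in each group). The log2 difference was 3.90 (standard error 0.41, adjusted p = 0.0457 from limma). High values were not confined to baicalin. MERGE.10021.3 reached 60.2 FPKM in 1 Control mouse, while the other 4 lay at 4.51 FPKM or less, and 3 gastrodin mice lay at 63.7, 71.7 and 75.2 FPKM. The baicalin and Ang II mice each lay at 1 level, high or low. The adjusted p of 0.0457 from limma thus does not measure how often mice fall at either. Against the gastrodin group the log2 difference of MERGE.10021.3 was 1.25 (standard error 1.16, adjusted p = 0.935 from limma).

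MERGE.2160.10 was at 26.6, 21.6, 24.5, 23.4 and 21.5 FPKM in the baicalin mice and at 9.47, 7.87, 11.5, 11.9 and 7.43 FPKM in the Ang II mice. Both groups were tight, and FPKM + 1 was 2.33-fold higher with baicalin (log2 difference 1.22, standard error 0.14, adjusted p = 0.0485 from limma). The baicalin mice also lay above all 20 mice of the remaining groups, among which the highest value was 20.8 FPKM, in an ethoxysanguinarine mouse. Group means were 9.19 ± 4.20 FPKM for Control, 14.9 ± 4.30 for gastrodin, 10.7 ± 6.74 for ethoxysanguinarine and 8.46 ± 4.84 for valsartan (SD, n = 5 in each group). In the direct comparisons with Control, gastrodin and ethoxysanguinarine the adjusted p from limma was 0.245, 0.851 and 0.731.

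MERGE.22948.4 was listed at 0 in all 5 Ang II mice and stood at 2.32, 4.18, 3.57, 2.43 and 1.17 FPKM in the baicalin mice (adjusted p = 0.0485 from limma). No fold is given against values of 0. Among the 10 mice compared it reached 1 FPKM in the baicalin mice alone. It was thus tested only because it was high there, and with no filter its adjusted p was 0.0537 (limma). It was also at 0 in 4 Control mice, 3 gastrodin mice and 4 valsartan mice, and the remaining mice of these groups reached up to 4.37 FPKM. It has no value for ethoxysanguinarine. These 3 calls were close to the threshold, and under the alternative settings in which each was tested MERGE.10021.3 passed in 10 of 22 (adjusted p from 0.000842 to 0.264), MERGE.2160.10 in 4 of 22 (0.0192 to 0.228) and MERGE.22948.4 in 1 of 11 (0.0334 to 0.120, all limma).

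No Ensembl transcript passed the adjusted threshold, and the smallest adjusted p among the 14064 tested was 0.0638 (limma). At an unadjusted p under 0.05, 385 of them were higher and 1021 lower. The pair with the smallest p in each direction is given here with its levels. ENSMUST00000225306 was at 8.60, 4.67, 8.58, 6.39 and 7.98 FPKM in the baicalin mice and at 2.37, 2.05, 2.79, 2.02 and 1.84 FPKM in the Ang II mice. All baicalin mice were above all Ang II mice (log2 difference 1.34, standard error 0.17, adjusted p = 0.0638 from limma). With all 6 groups in one fit it passed, as it did without baicalin mouse 5154, and its adjusted p ranged from 0.0200 to 0.264 over the alternatives (limma). The Ang II group was the lowest of the 6, with means of 5.09 ± 2.18 FPKM in Control, 5.88 ± 2.85 with gastrodin, 7.86 ± 2.45 with ethoxysanguinarine and 4.75 ± 2.03 with valsartan (SD, n = 5 in each group). Baicalin and ethoxysanguinarine differed by -0.088 on the log2 scale (standard error 0.22, adjusted p = 0.968 from limma).

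ENSMUST00000028780 was a low transcript, at 1.70, 2.04, 1.76, 2.41 and 1.86 FPKM in the baicalin mice and 0.340, 0.165, 0.293, 0.532 and 0.725 FPKM in the Ang II mice. Among the 10 mice compared it too reached 1 FPKM in the baicalin mice alone, and it was tested only because it was high there. Its log2 difference was 1.08 (standard error 0.14, adjusted p = 0.0681 from limma, and 0.0765 with no filter). The Control mean was 1.18 ± 0.425 FPKM (SD, n = 5), with 1 Control mouse in the Ang II range at 0.460 FPKM, and the difference of Control from baicalin did not pass either (adjusted p = 0.529 from limma). Means were 1.31 ± 0.585 FPKM with ethoxysanguinarine, 1.06 ± 0.544 with gastrodin and 1.12 ± 0.161 with valsartan (SD, n = 5 in each group). The Ang II mean, 0.411 ± 0.219 FPKM, was thus the lowest of all groups.

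Of the lower pair, ENSMUST00000075092 was at 24.0, 23.7, 23.8, 26.6 and 18.0 FPKM in the baicalin mice and at 37.7, 47.5, 41.0, 34.4 and 40.2 FPKM in the Ang II mice. The groups did not overlap, but the adjusted p was 0.172 (limma, log2 difference -0.77, standard error 0.12). The gastrodin mean of 20.9 ± 4.59 FPKM and the ethoxysanguinarine mean of 21.4 ± 5.79 FPKM were close to the baicalin mean of 23.2 ± 3.15 FPKM (SD, n = 5 in each group). Control stood at 28.4 ± 9.16 FPKM and valsartan at 30.2 ± 9.75 FPKM (SD, n = 5), with mice on either side of the gap between baicalin and Ang II.

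**Figure D1:**
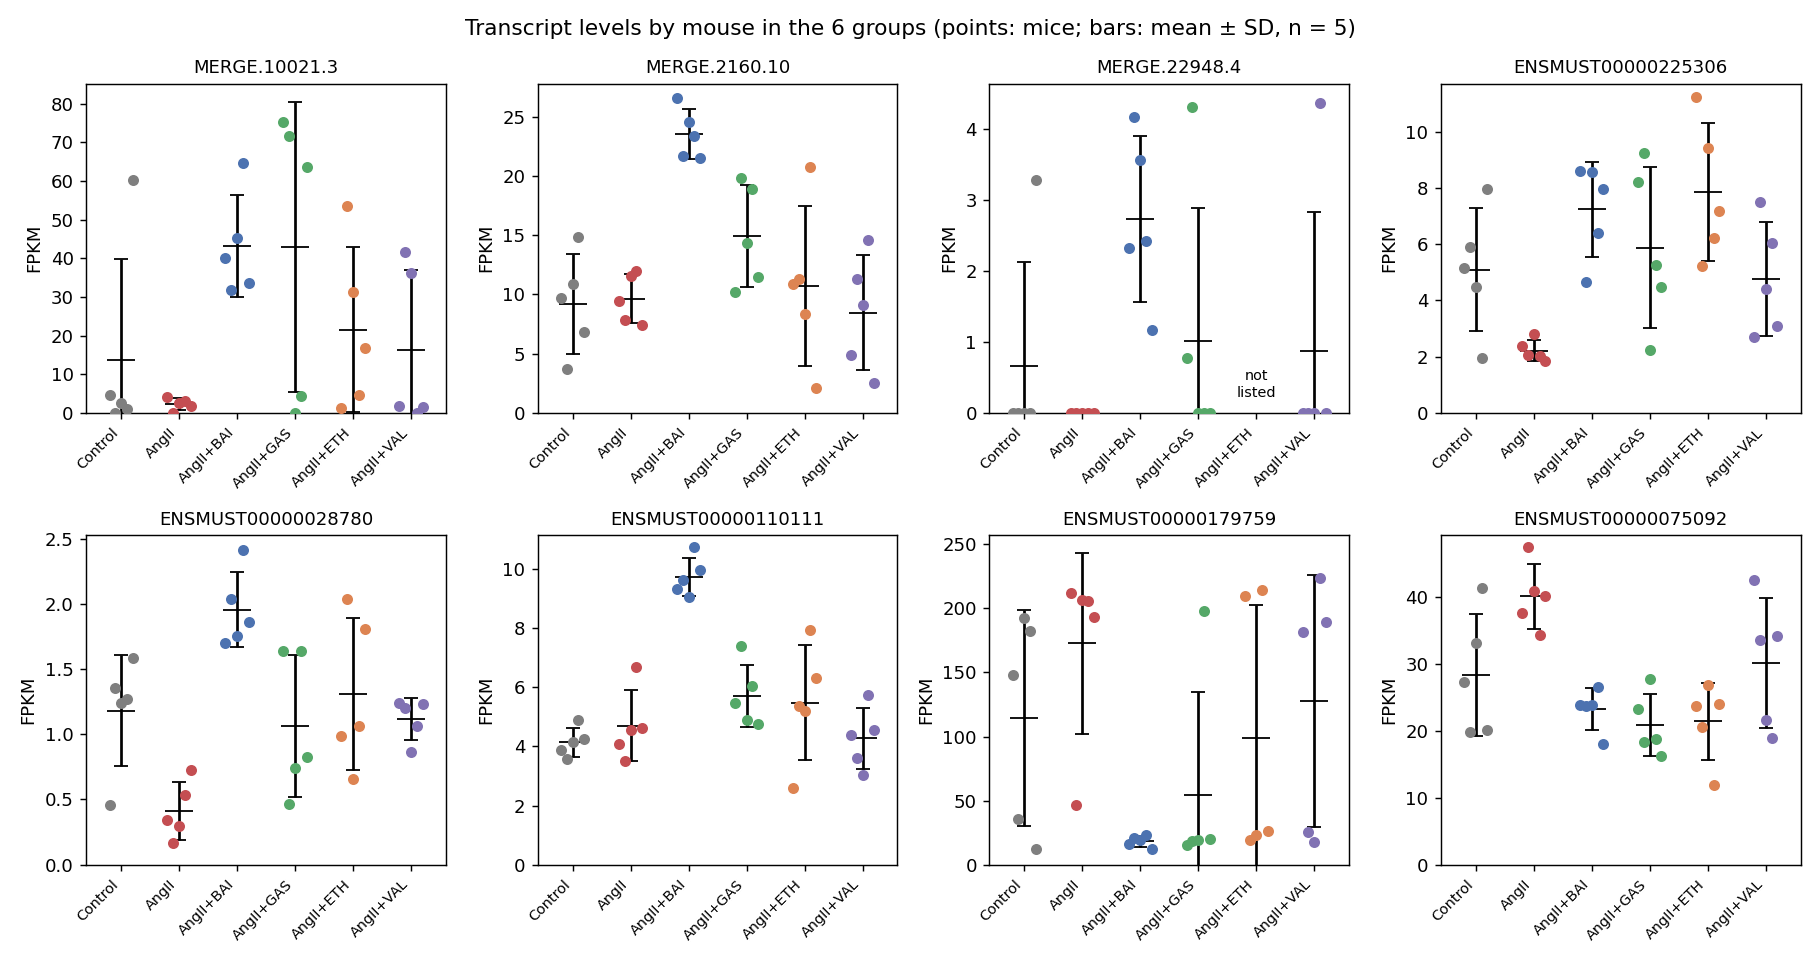
Level of 8 transcripts in FPKM (vertical axes from 0, a separate linear scale for each) in the 6 groups. Each point is 1 mouse and bars give the mean ± SD (n = 5), drawn down to 0 at most. The baicalin mice (blue) stand apart from all other mice for MERGE.2160.10 and ENSMUST00000110111, whereas MERGE.10021.3 and ENSMUST00000179759 have high and low mice in several groups.

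The other lower transcript, ENSMUST00000179759, was at 16.0, 20.9, 19.1, 22.8 and 12.3 FPKM in the baicalin mice and at 212, 46.9, 207, 205 and 194 FPKM in the Ang II mice. Ang II mouse 5128, at 46.9 FPKM, stood far below the other 4 Ang II mice and above every baicalin mouse. The log2 difference was -3.03 (standard error 0.41, adjusted p = 0.0681 from limma), and without mouse 5128 the adjusted p was 6.01e-05 (limma). That was the only one of 23 alternatives in which it passed, and in the other 22 the adjusted p was 0.0606 to 0.299 (limma). The values of this transcript fell into 2 ranges over all 30 mice, 148 to 224 FPKM in 13 mice and 12.3 to 46.9 FPKM in 17 mice. The lower range held 5 of 5 baicalin mice, 1 Ang II mouse, 2 Control mice, 4 gastrodin mice, 3 ethoxysanguinarine mice and 2 valsartan mice. That Ang II mouse was 5128, so without it each compared group lay in 1 range. The adjusted p of 6.01e-05 from limma thus rests on the spread within a range. It does not measure how often mice fall in either.

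ENSMUST00000179759 and MERGE.10021.3 mirrored each other. In the 13 mice at 148 FPKM or more of the former, the latter was at 4.61 FPKM or less. In 14 of the 17 other mice it was at 16.8 to 75.2 FPKM, and in the remaining 3 it was at 0. Both transcripts were named for opposite differences between baicalin and Ang II, so the opposition between those groups follows from that choice. The Control, gastrodin, ethoxysanguinarine and valsartan mice had no part in it. Mice of both ranges were present in every group except baicalin, Control included. Whether the transcripts come from one locus was not tested.

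**Figure D2:**
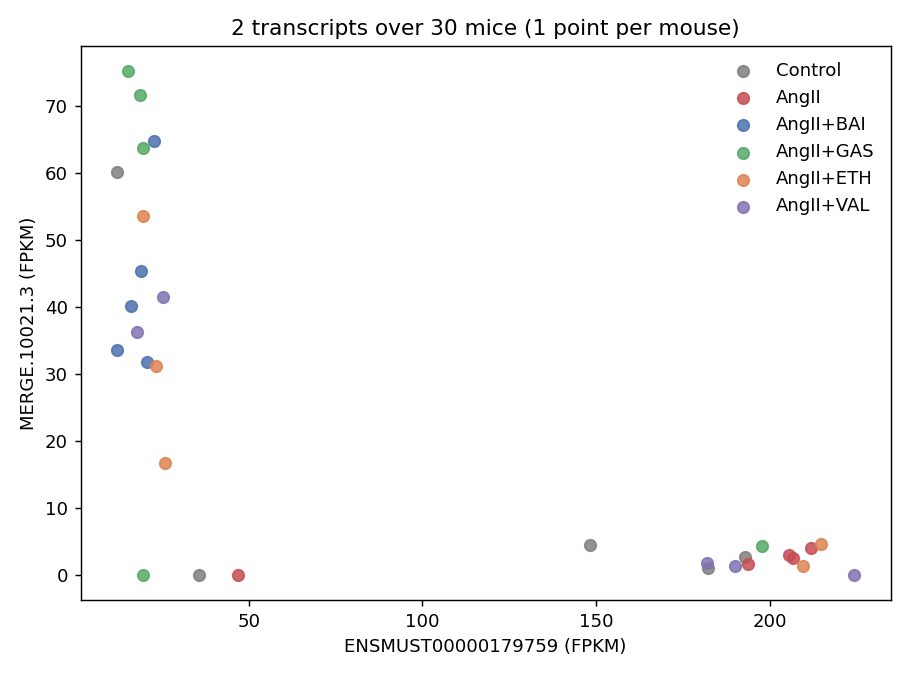
FPKM of MERGE.10021.3 (vertical axis) against FPKM of ENSMUST00000179759 (horizontal axis), 1 point per mouse for 30 mice, coloured by group. The 13 mice at 148 FPKM or more on the horizontal axis lie at 4.61 FPKM or less on the vertical axis, and the 5 baicalin mice all lie at the left, at 31.8 FPKM or more on the vertical axis.

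Of the 320 transcripts past the study's thresholds, 138 (43.1%) were at 0 in 1 mouse or more, and this share was 15.5% among all 18140 transcripts. Of the 4076 merged models tested, 30.6% were at 0 in at least 1 mouse and 3.29% passed the study's thresholds. Of the 14064 Ensembl transcripts, 11.1% were at 0 in at least 1 mouse and 1.32% passed.

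ENSMUST00000082421 switched between very high and very low values. It was at 66345, 61956, 53286 and 53395 FPKM in 4 baicalin mice and at 0.813 FPKM in baicalin mouse 5138. In the Ang II group it was at 52216 and 50819 FPKM in 2 mice and between 0.962 and 1.36 FPKM in the other 3. It was at 10000 FPKM or more in 4 Control mice, 2 gastrodin mice, 2 ethoxysanguinarine mice and 5 valsartan mice. No mouse lay between these extremes. The 20 switching transcripts, of which 11 are models of 1 merged locus (MERGE.24059), held 11.4% to 14.5% of the summed FPKM in baicalin mice and 3.09% to 15.7% in Ang II mice. What these switches contribute to the differences of other transcripts was not tested. Without them the sums were 506028 to 571319 FPKM in the baicalin mice and 543578 to 601278 FPKM in the Ang II mice.

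**Figure D3:**
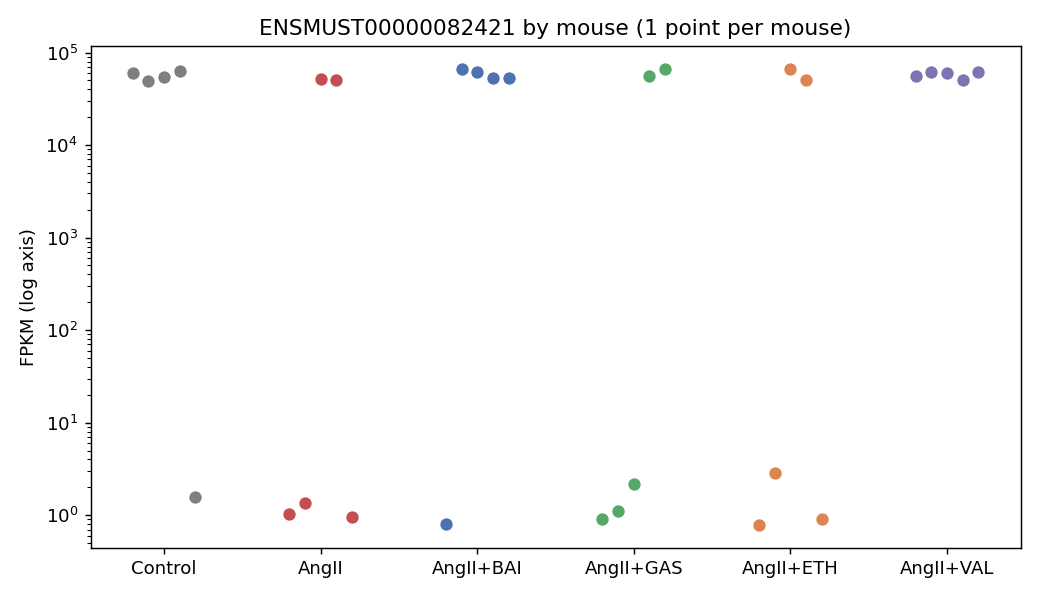
FPKM of ENSMUST00000082421 (vertical log axis) in each of 30 mice by group. Each mouse lies either at 0.786 to 2.83 FPKM or above 10000 FPKM, with 4 of 5 baicalin mice and 2 of 5 Ang II mice at the upper level.

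The share of lower transcripts was highest among abundant ones. Among the 349 tested transcripts with a mean of at least 100 FPKM, a class chosen after the data were seen, 129 were lower with baicalin at an unadjusted p under 0.05 (37.0%) and 6 were higher (1.72%). None passed the adjusted threshold in limma. Their median log2 difference was -0.21, and 284 of the 349 were below 0. The share of lower transcripts was 18.6% at 20 to 100 FPKM, 7.80% at 5 to 20, 4.66% at 2 to 5 and 3.70% under 2 FPKM. The share of higher ones was 1.72%, 1.65%, 2.48%, 3.20% and 3.60% in the same classes, from the most to the least abundant. This pattern depended on the scale as well. In the most abundant class 92 were lower and 7 higher with the 75th percentiles set equal, 50 and 8 with the sums set equal without the switching transcripts, and 25 and 14 after quantile normalization. Quantile normalization sets the highest values of every library equal. It would thus remove a shift of the whole class and cannot show whether there was one. Without baicalin mice 5154 and 5113, 86 were lower and 4 higher.

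**Figure D4:**
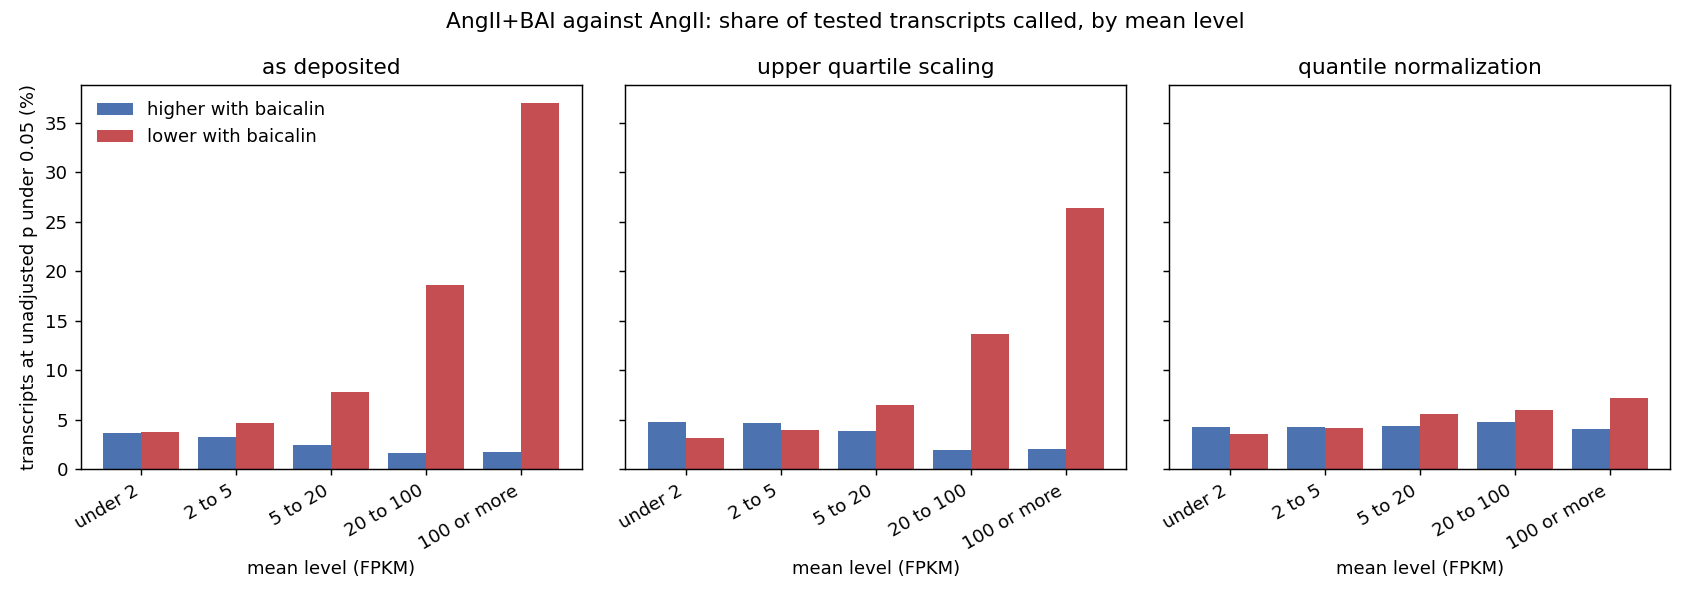
Percent of tested transcripts higher (blue) or lower (red) with baicalin than with Ang II alone at an unadjusted p under 0.05 from limma (vertical axis from 0), by mean FPKM (horizontal axis), under 3 scalings. As deposited, 37.0% of transcripts at 100 FPKM or more were lower and 1.72% higher, and after quantile normalization 7.16% and 4.01%.

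The level of this class was also taken as 1 value per mouse. Over the 356 transcripts of at least 100 FPKM that were listed for all 30 mice, the median FPKM was 176, 160, 162, 182 and 168 in the baicalin mice and 192, 220, 193, 206 and 195 in the Ang II mice. Every baicalin mouse was below every Ang II mouse. On log2(FPKM + 1) the means of these medians were 7.41 ± 0.079 and 7.66 ± 0.081 (SD, n = 5 in each group), a difference of -0.25. The baicalin mean was also below that of each other group, by 0.14 to 0.19 on the log2 scale for Control, gastrodin, ethoxysanguinarine and valsartan, and the mice of these 4 groups overlapped with the baicalin mice. Since the class was chosen for its lower transcripts in these same mice, its levels are a description and were not tested.

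The level of a library also depends on its scale. The ratio of the abundant median to the median of all 19471 transcripts with a mean of at least 1 FPKM does not change when a library is multiplied by a constant. The log2 of this ratio was 6.00, 6.12, 5.89, 6.01 and 5.95 in the baicalin mice and 6.15, 6.29, 6.26, 6.26 and 6.06 in the Ang II mice. Here Ang II mouse 5156 lay below baicalin mouse 5154, and the other Ang II mice lay above all baicalin mice. The means differed by -0.21, and the difference from the other 4 groups was -0.10 to -0.12. For transcripts of 20 to 100 FPKM the log2 ratio differed by -0.12 from Ang II and by -0.026 to -0.048 from the other 4 groups. These ratios rest on the same choice and were not tested. The summed FPKM, the numbers of transcripts at 0 and at 1 FPKM or more, the share of the 10 most abundant transcripts and the median of all transcripts did not differ detectably between baicalin and Ang II mice (adjusted p = 0.635 for each over these 5 measures, exact permutation tests).

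**Figure D5:**
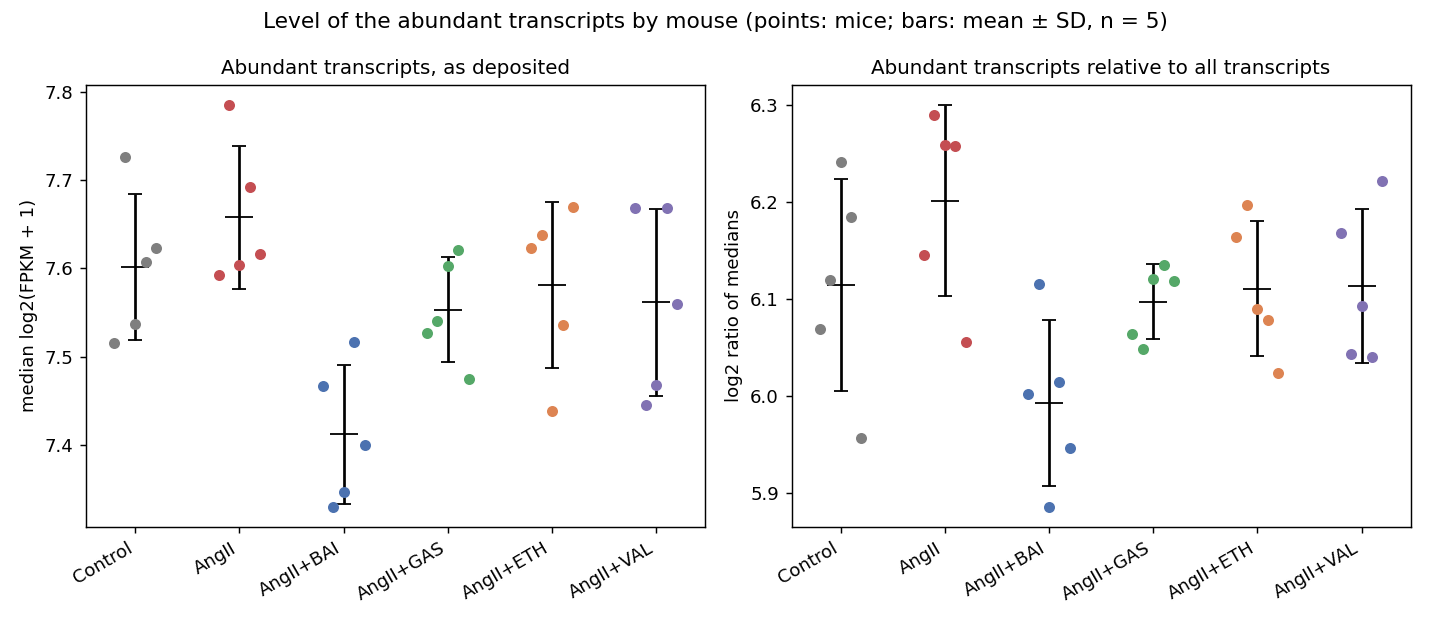
Left, median log2(FPKM + 1) of the 356 transcripts of at least 100 FPKM in each mouse. Right, log2 ratio of their median FPKM to that of all 19471 transcripts. Points are mice by group and bars the mean ± SD (n = 5), on axes that do not start at 0. On the left all baicalin mice (7.33 to 7.52) lie below all Ang II mice (7.59 to 7.78), and on the right 1 Ang II mouse lies among the baicalin mice.

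The baicalin mice were also compared directly with the other groups, which share the baicalin mice and are not independent of the results above. Against the saline Control mice, 1550 of 18437 transcripts differed at an unadjusted p under 0.05 (8.41%), 519 higher and 1031 lower, and 2 at an adjusted p under 0.05 from limma (0.0108%). After quantile normalization the split turned round, with 859 higher and 774 lower. ENSMUST00000110111 rose, and it was at 9.32, 9.63, 9.05, 10.7 and 9.96 FPKM in the baicalin mice and at 3.87, 3.56, 4.14, 4.89 and 4.24 FPKM in the Control mice (log2 difference 1.07, standard error 0.11, adjusted p = 0.0268 from limma). The baicalin mice were tightly grouped at more than the highest Control value. The Ang II mice resembled Control, at 4.70 ± 1.21 FPKM (SD, n = 5), but baicalin against Ang II had an adjusted p of 0.147 (limma). MERGE.17924.4 was lower than in Control. It was at 0.0218 ± 0.0253 FPKM with baicalin and 2.25 ± 0.934 FPKM in Control (SD, n = 5, adjusted p = 0.0387 from limma), and the Ang II mice ranged from 0.0159 to 1.72 FPKM. It was tested only because it was at 1 FPKM or more in all Control mice, and with no filter its adjusted p was 0.0592 (limma). The baicalin and Control groups each lay at 1 level, so neither p measures how often mice fall at a low or a high level. These and the transcripts of the next comparisons are named because of their small number, after their values were seen.

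Against gastrodin at the same dose, 998 of 18313 transcripts differed at an unadjusted p under 0.05 (5.45%), 322 higher and 676 lower with baicalin, and 3 at an adjusted p under 0.05 from limma (0.0164%). After quantile normalization 455 were higher and 525 lower. The share of 5.45% is close to the 1 in 20 that this threshold calls when nothing differs. ENSMUST00000029644 was higher with baicalin, at 26.2 ± 3.61 FPKM, than with gastrodin, at 9.16 ± 1.29 FPKM (SD, n = 5 in each group, adjusted p = 0.00374 from limma). The Ang II mice spread over both, from 2.53 to 32.0 FPKM. ENSMUST00000153892 was lower, at 1.00 ± 0.477 FPKM against 25.7 ± 12.5 FPKM (SD, n = 5 in each group, adjusted p = 0.00374 from limma), and the Ang II mice were at either level, from 0.927 to 21.6 FPKM. ENSMUST00000122334 was lower as well, at 1.28 ± 0.996 FPKM against 12.2 ± 2.48 FPKM (SD, n = 5 in each group, adjusted p = 0.0446 from limma), with Ang II mice from 1.08 to 16.9 FPKM. For both lower transcripts the baicalin and gastrodin groups each lay at 1 level. Their p from limma thus rests on the spread within a level and does not measure how often mice fall at either.

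Against ethoxysanguinarine at the same dose, 1125 of 18426 transcripts differed at an unadjusted p under 0.05 (6.11%), 333 higher and 792 lower with baicalin, and 5 at an adjusted p under 0.05 from limma (0.0271%). After quantile normalization 533 were higher and 570 lower. The share of 6.11% is little above the 1 in 20 that this threshold calls when nothing differs. ENSMUST00000105998 was at 0 in 4 baicalin mice and at 0.0683 FPKM in the other, while the ethoxysanguinarine mice were at 21.0 to 32.1 FPKM (adjusted p = 1.38e-07 from limma). ENSMUST00000105999 was higher with baicalin, at 27.7 ± 11.1 FPKM against 3.41 ± 0.797 FPKM (SD, n = 5 in each group, adjusted p = 0.00586 from limma). In both transcripts the Ang II mice spanned the range, with ENSMUST00000105998 at 14.9 and 27.6 FPKM in 2 mice and at 0.0242 FPKM or less in the others. Those 2 mice had the least ENSMUST00000105999, at 1.48 and 4.19 FPKM, whereas the other 3 had 25.7 to 47.0 FPKM. The baicalin and ethoxysanguinarine groups each stayed at 1 of these levels, so the p from limma rests on the spread within a level. It does not measure how often mice fall at either level.

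The remaining 3 transcripts, like ENSMUST00000105998, reached 1 FPKM in 1 of the compared groups alone and were tested only because they were high there. With no filter the adjusted p of these 4 was 0.00198 or less (limma). ENSMUST00000111913 was higher with baicalin, at 2.72 to 7.42 FPKM against 0.0397 to 0.0836 FPKM with ethoxysanguinarine (adjusted p = 0.00109 from limma). ENSMUST00000211716 was at 0 in all baicalin mice and at 11.7 to 16.4 FPKM with ethoxysanguinarine (adjusted p = 1.38e-07 from limma), and MERGE.1119.4 was at 0 in 4 baicalin mice and at 5.52 to 7.49 FPKM with ethoxysanguinarine (adjusted p = 0.000897 from limma). In the Ang II group these transcripts ranged from 0.0310 to 5.07, from 0 to 19.7 and from 0.237 to 8.69 FPKM. As for ENSMUST00000105998, their p from limma does not measure how often mice fall at a high or a low level. Valsartan was given at another dose, so its values are set beside those of baicalin above with no comparison for single transcripts.

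Transcripts in which baicalin mice stood outside all 25 other mice were few. Of 24844 transcripts listed for all mice and at 1 FPKM or more in at least 5, the 5 baicalin mice were above all others in 3 and below all others in 2, which is 0.0201%. The same count was 7 and 6 for Control, 0 and 3 for Ang II, 0 and 3 for ethoxysanguinarine and 0 in both directions for gastrodin and for valsartan. The higher ones were MERGE.2160.10, ENSMUST00000110111 and ENSMUST00000143154, and the last was at 2.144 to 2.742 FPKM against at most 2.138 FPKM elsewhere. The lower ones were ENSMUST00000089860, at 3.37 to 4.07 FPKM against 4.09 FPKM or more elsewhere, and ENSMUST00000197962, at 0.255 to 0.755 FPKM against 0.823 FPKM or more. The gap to the nearest other mouse was small in all but ENSMUST00000110111, whose highest value elsewhere was 7.93 FPKM, in an ethoxysanguinarine mouse. These 5 transcripts were chosen for this pattern, so it is a description and no test was made.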

How the data were processed

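Cardiac RNA from which ribosomal RNA had been removed was sequenced from 5 mice in each of 6 groups, and the labels gave the groups. The deposited tables, 1 per mouse, hold 1 number per transcript, taken here to be FPKM computed by the authors. The unit, the aligner, the quantifier and the annotation were not given in the sources used here. Build mm10 and limma are named in the submitters' processing notes, and DESeq in the paper. The authors had filtered the values, since the higher of the Control and Ang II means is 0.5 or more for every transcript listed for the Ang II mice. No such check was made for transcripts listed only for other groups. Depth per mouse is unknown, so intervals that need it are left out. Precision was judged by the spread over 5 mice, each with 1 library from its own heart. For the groups it describes, the paper gives the left part of the heart as the tissue sequenced.

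On log2(FPKM + 1), 2 groups at a time were tested using limma 3.58.1 and R 4.3.3 (two-sided moderated test with a mean-variance trend, fitted to the 10 libraries alone), for transcripts listed for all 10 mice and at 1 or more in at least 5, with Benjamini-Hochberg adjustment over all transcripts tested. The script was tested on simulated data. Of the single values per mouse, 5 were compared by exact permutation over all 252 divisions. Tables and figures were made with pandas 2.3.3 and matplotlib 3.10.9 in Python 3.11.15. The alternatives were quantile normalization, scaling to the 75th percentile, a pseudocount of 0.1, no filter, a mean of at least 5, limma without the trend, all 6 groups in one fit, Ensembl transcripts alone and each mouse left out. The scaling without switching transcripts (at 1000 FPKM or more in 1 of the 10 mice and under 1/100 of their highest value in another), the abundance classes, the ratio of medians the count of transcripts outside all other mice and the count of those that passed the filter through 1 group were added after the data were seen. The groups, lists and tests were all chosen with earlier results of these data known.

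Named transcripts are the 2 Ensembl transcripts with the smallest p in each direction, since none passed the adjusted threshold, and those that passed it where 5 or fewer did. Gene and cell type lists were not analysed, as 0 identifiers had a symbol.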

Additional observations from a re-analysis of the deposited data

Results flagged for a closer look

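In 40 checks of values within groups of 5 mice, 5 values stood apart from the rest of their group by Dixon's criterion (gap over range above 0.71), where chance gives about 1 in 20 checks. Of these, 3 belong to baicalin mouse 5154 and overlap in what they measure. The number of its transcripts that reached 1 FPKM was 16808, and the other baicalin mice had 18495 to 18688. Its median over all transcripts was 1.73 on log2(FPKM + 1), against 1.90 to 1.93, and 2.31 FPKM, against 2.72 to 2.82 FPKM. Over the 28298 transcripts listed for all 30 mice, low ones included, the mean r of Ang II mouse 5156 with the other Ang II mice was 0.799, and theirs were 0.812 to 0.814. Ang II mouse 5128 had 46.9 FPKM of ENSMUST00000179759, against 194 to 212 FPKM in the other Ang II mice.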

How the results depend on the processing

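No paired analysis was possible because the labels give each mouse a number of its own and tie no mouse to one of another group. Baicalin against Ang II gave 548 higher and 1221 lower transcripts at an unadjusted p under 0.05, 3 and 0 at an adjusted p, and 140 and 180 at the study's thresholds (limma). The counts that moved by more than 1.5 times are given here. The cause was not tested, apart from fewer transcripts under the higher filter and among Ensembl transcripts alone. Quantile normalization gave 813 lower, 1 higher at an adjusted p, and 14 higher and 25 lower at 100 FPKM or more. A pseudocount of 0.1 gave 0 higher at an adjusted p (515 unadjusted) and 237 higher and 276 lower at the study's thresholds. No filter gave 861 higher, and 1 higher and 1 lower at an adjusted p. A mean of at least 5 gave 135 and 734, with 42 and 69 at the study's thresholds. No trend gave 0 higher at an adjusted p (563 unadjusted). Scaling to the 75th percentile gave 1. Ensembl transcripts alone gave 0 (400 unadjusted), with 85 and 105 at the study's thresholds. All 6 groups in one fit gave 1842 lower, and 16 higher and 38 lower at an adjusted p. Leaving out mice 5154 and 5113, chosen from an earlier report, gave 733 lower and 7 lower at an adjusted p. The settings that follow were added after the data were seen. Leaving out these mice with quantile normalization gave 675 and 9, with 10 higher and 22 lower at 100 FPKM or more and a median log2 difference of 0.0046. Equal sums without switching transcripts gave 840 higher, 610 lower, 50 lower at 100 FPKM or more and a median of 0.026. All groups with quantile normalization gave 1362 higher, 41 and 17 at an adjusted p, 22 and 30 at 100 FPKM or more and a median of 0.0055. A mean of at least 5 with quantile normalization gave 300 and 334, 52 and 50 at the study's thresholds, and 16 and 25 at 100 FPKM or more.

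With each mouse left out, higher transcripts ranged from 439 to 619 and lower ones from 892 to 1448, higher ones at an adjusted p from 0 to 5 and lower ones from 0 to 3. At the study's thresholds they ranged from 118 to 149 and from 149 to 200, and at 100 FPKM or more from 4 to 7 and from 112 to 151. No transcript was higher at an adjusted p without Ang II mouse 5156 or without baicalin mouse 5138, 5113, 5140 or 5133 (583, 459, 534, 455 and 439 at an unadjusted p, limma), and 1 was without mouse 5154. The filter still asked for at least 5 mice at 1 FPKM or more. Leaving out a baicalin mouse thus took MERGE.22948.4 and ENSMUST00000028780 out of the test, whatever their difference. Without Ang II mouse 5130 there were 5, and without Ang II mouse 5128 there were 4 higher and 3 lower. Leaving out baicalin mouse 5154, 5113, 5140 or 5133 gave 1 lower.

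Against Control, 686 passed the unadjusted threshold with a mean of at least 5, 2540 with all groups in one fit and 1188 to 1563 with a mouse left out. At an adjusted p the 2 became 6 with quantile normalization, 1 with a pseudocount of 0.1, 1 with no filter, 48 with all groups, 6 without mice 5154 and 5113, and 0 to 12 with a mouse left out. Against gastrodin, 358 passed the unadjusted threshold with a mean of at least 5 and 805 to 1234 with a mouse left out. At an adjusted p the 3 became 0 with all groups (1433 unadjusted, limma), 7 without both baicalin mice and 2 to 6 with a mouse left out. Against ethoxysanguinarine, 417 passed the unadjusted threshold with a mean of at least 5 and 888 to 1320 with a mouse left out. At an adjusted p the 5 became 3 with a mean of at least 5, 1 with all groups and 1 to 9 with a mouse left out.

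The direction of the 7 transcripts named for baicalin against Ang II was the same in every alternative in which each was tested. Since the groups did not overlap in any of them, leaving out mice or changing the filter, pseudocount or trend could not have reversed it. The transcripts named against other groups were refitted with no filter alone, where ENSMUST00000122334 and MERGE.17924.4 no longer passed (adjusted p = 0.0734 and 0.0592, limma). Small differences could not be detected with 5 mice per group and a median SD of 0.358 (baicalin) and 0.327 (Ang II) on the log2 scale.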
